A study of Mus musculus with 7 samples.

Results

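Hair follicle keratins and keratin-associated proteins were followed in whole skin papillomas of p16-expressing mice and of their controls. The genes were chosen by name, as the 21 listed hair keratins, hair keratin modifiers and follicle transcription factors plus every gene whose symbol starts with Krtap, and were kept when at least 1 papilloma held a read. Of the 14820 genes measured, 69 met this rule. Of these, 20 were listed genes (Krt85 had no row) and 49 were keratin-associated protein genes of 25 families, while Krtap4-13, Krtap5-1 and Krtap9-5 were at 0 in every papilloma and were left out.

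The p16 papillomas came from K5-rtTA/tet-p16 mice and the control papillomas from tet-p16 mice, which carried the inducible transgene without its activator. The activator is driven by the Krt5 promoter, so that with doxycycline the human transgene is expressed in basal keratinocytes of the epidermis and follicle. All mice, controls included, received 50 nmol of the mutagen DMBA on the skin at 3 weeks of age and, from a week later, doxycycline in the water and 2 topical treatments a week with the tumor promoter TPA, and they were killed at 27 weeks of age, 10 days after the last TPA. The study's methods give female mice for papilloma formation assays, while the labels give no sex for the profiled lesions. The K5-rtTA line was on the FVB background and the tet-p16 line on mixed C57Bl6 and 129sv, and the RNA was of whole lesions, so epidermis, follicle remnants and stroma were measured together. There were 3 p16 papillomas (replicates 1, 2 and 3) and 4 control papillomas (replicates 1, 2, 3 and 5). Nothing in the labels gives the mouse of each lesion. The p-values therefore set the difference between groups against the spread between these lesions, and they do not extend to mice.

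A growing hair is built from concentric layers. The inner root sheath, which moulds and guides the shaft, is filled with its own keratins (the type I keratins K25, K27 and K28 paired with the type II keratins K71 and K73) and with trichohyalin, which peptidylarginine deiminase 3 citrullinates. The shaft (cortex and cuticle) is made of hair keratins, type I (K31 to K36) paired with type II (K81, K83, K85, K86), embedded in keratin-associated proteins, small proteins rich in cysteine (the high sulfur and ultrahigh sulfur classes) or in glycine and tyrosine, which crosslink the keratin filaments. Dlx3, Hoxc13 and Foxn1 encode transcription factors that direct these programs in the hair matrix.

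Each value below is a normalized read count, that is, the count of reads divided by the size factor that the authors assigned to each papilloma. Libraries held 1158035 to 4365391 reads, and a single read was worth 0.735 in p16 papilloma 3 and 2.89 in p16 papilloma 2, so that low values there moved in coarse steps. A gene was tested when its p16 mean or its control mean reached 10. The test was limma on log2(value + 1), and changes on this scale understate those of low genes. Basal keratins were at high levels in every papilloma, with Krt14 at 13361 to 20581 in p16 papillomas and at 23398 to 33335 in control papillomas.

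Short stretches around the start sites of the 5 inner root sheath keratins and of 4 keratin-associated proteins are shown because 8 of these 9 stretches hold TATAAA, a sequence feature that the choice of genes did not use, and Krtap3-3 is the exception. Each runs 5′ to 3′ from 50 bases before the annotated start to 10 bases from it, on GRCm38.p6 (RefSeq), minus strand. The letters TATAAA, the core of the TATA box that positions transcription initiation, are in capitals wherever they occur. Their distance from the start differs, and in Krt27 they begin only 15 bases before it. The stretches lie at chr15:101743088-101743147 (Krt71), chr15:101802351-101802410 (Krt73), chr11:99322942-99323001 (Krt25), chr11:99351109-99351168 (Krt27), chr11:99374894-99374953 (Krt28), chr11:99566621-99566680 (Krtap3-1), chr11:99556844-99556903 (Krtap3-2), chr11:99550854-99550913 (Krtap3-3) and chr16:89487943-89488002 (Krtap8-1).
Krt71: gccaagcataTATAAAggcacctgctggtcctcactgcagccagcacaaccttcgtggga
Krt73: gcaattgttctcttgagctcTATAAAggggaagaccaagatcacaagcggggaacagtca
Krt25: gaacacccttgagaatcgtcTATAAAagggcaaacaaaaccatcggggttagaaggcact
Krt27: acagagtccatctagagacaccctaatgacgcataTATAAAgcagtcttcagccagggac
Krt28: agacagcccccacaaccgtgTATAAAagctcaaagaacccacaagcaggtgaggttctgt
Krtap3-1: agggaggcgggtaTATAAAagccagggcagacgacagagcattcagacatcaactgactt
Krtap3-2: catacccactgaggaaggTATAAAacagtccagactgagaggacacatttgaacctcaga
Krtap3-3: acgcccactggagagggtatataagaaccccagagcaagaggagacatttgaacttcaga
Krtap8-1: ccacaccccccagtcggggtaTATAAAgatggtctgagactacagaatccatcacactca

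RefSeq start windows of 300 bases (250 before and 50 after the start, 1 per gene) were found for 57 of the 69 genes, and not for Dlx3, Hoxc13, Krt33a, Krt35, Krt81, Krt83, Krt86, Krtap1-3, Krtap12-1, Krtap19-9a, Krtap7-1 and Krtap9-1. TATAAA or its reverse complement TTTATA occurred in 45 of these 57 windows (78.9%), against 3827 of 27025 windows of all genes (14.2%). It was in all 5 windows of inner root sheath keratins and in 36 of 44 windows of keratin-associated proteins. Read on the sense strand and lying within 40 to 20 bases before the start, TATAAA was present in 33 of 57 windows (57.9%), against 2.13% of all windows. It was so placed in 4 of the 5 windows of inner root sheath keratins, Krt27 being the exception. The 3 Krtap3 genes showed that such an exact match varies among neighbors, since the stretch of Krtap3-3 holds the letters tatataag and no TATAAA. Near matches were not counted. CTTTGA (or TCAAAG), a core of LEF and TCF binding motifs, was in 20 of 57 windows (35.1%), against 16.2% of all windows, with 1 of the 5 inner root sheath windows and 4 of the 5 shaft keratin windows among them. ACGC (or GCGT), the core that Foxn1 recognizes, was in 29.8% of the windows, against 55.4% of all windows. The windows of the hair genes had a median GC content of 42.3%, against 52.7% for all genes, which bears on how often each motif is met. A match is a description of letters and does not show binding.

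The hair genes were scarce in these lesions, taking 0.00953% to 0.0595% of all reads. Summed over the 69 genes, the values were 378, 1818 and 1909 in p16 papillomas 1, 2 and 3, against 611, 407, 296 and 1016 in control papillomas 1, 2, 3 and 5. p16 papillomas 2 and 3 exceeded every control, whereas p16 papilloma 1 lay below 3 of the 4 controls, so the groups overlapped (1368 ± 859 in p16 papillomas and 582 ± 317 in control papillomas, SD, n = 3 and 4). Because whole lesions were sampled, fewer hair-forming cells and less RNA per cell cannot be told apart. Whether a lesion contained follicles was not recorded in the labels.

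**Figure D1:**
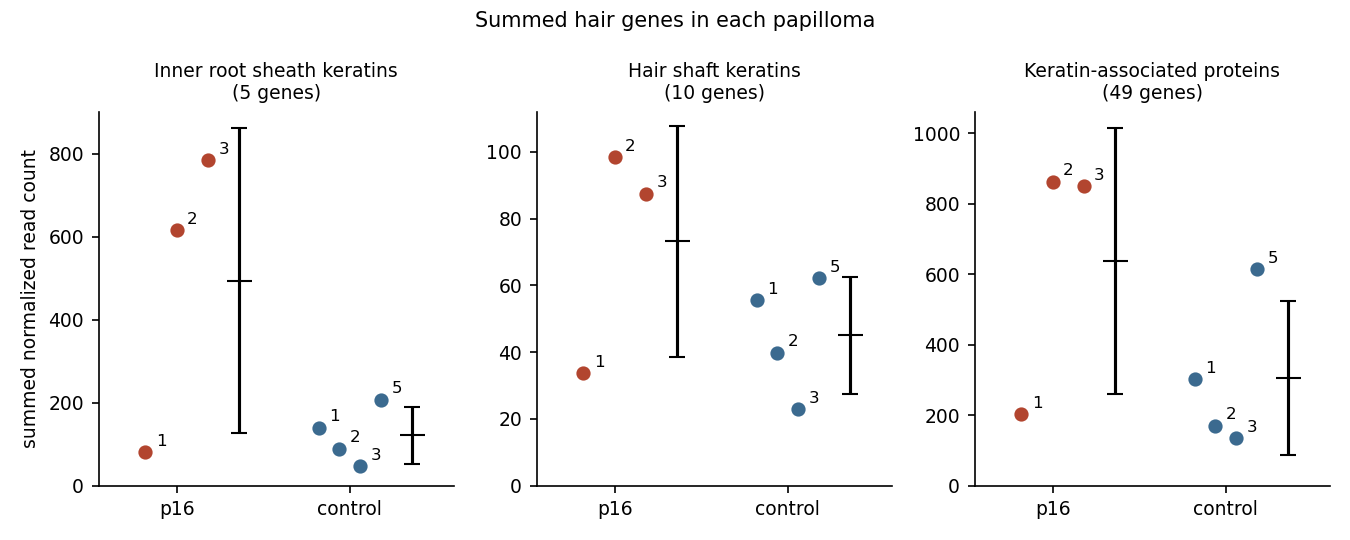
Summed normalized read count (y axis) of the inner root sheath keratins, the hair shaft keratins and the keratin-associated proteins in p16 and control papillomas. Points are papillomas with their replicate number, and bars show the mean ± SD (n = 3 p16, 4 control); p16 papillomas 2 and 3 are highest in every panel, p16 papilloma 1 lies within the control range, and control papilloma 5 is the highest control.

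Of the 69 genes, 30 passed the filter and were tested. Among these, 14 passed through the p16 mean alone, so their number and direction were partly set by the filter. Krtap3-2 was called higher in p16 papillomas (limma, adjusted p under 0.05) and no gene was called lower, that is, 1 of 30 (3.33%), against 5.62% of all 10466 genes tested (2.66% higher, 2.96% lower). In this fit the share of hair genes called was thus near the background. At unadjusted p under 0.05, 12 of the 30 were higher and 1 was lower, against 9.66% and 11.6% of all genes. The log2 changes (p16 minus control) were positive for 26 of the 30, with a median of 1.01, beside -0.02 over all genes tested. With a filter blind to the groups, 25 genes remained, of which 22 were positive (median 1.05). With no filter, 52 of the 69 were positive with a median of 0.50, beside -0.03 and 47.6% positive over all genes with a read. On the recovered reads, edgeR called 1 of the same 30 hair genes, against 5.19% of all genes (2.72% higher, 2.47% lower). DESeq2 called 4 of the 30, against 7.53% of all genes (3.78% higher, 3.76% lower). Both called 0 hair genes lower. The calls depended on single papillomas. Leaving out p16 papilloma 1 gave 8 called hair genes, all higher, against 3.64% of all genes (1.84% higher, 1.8% lower). Leaving out p16 papilloma 2, control papilloma 1 or control papilloma 2 gave 0. The filter was applied anew in these fits, so the number of hair genes tested could differ from 30.

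**Figure D2:**
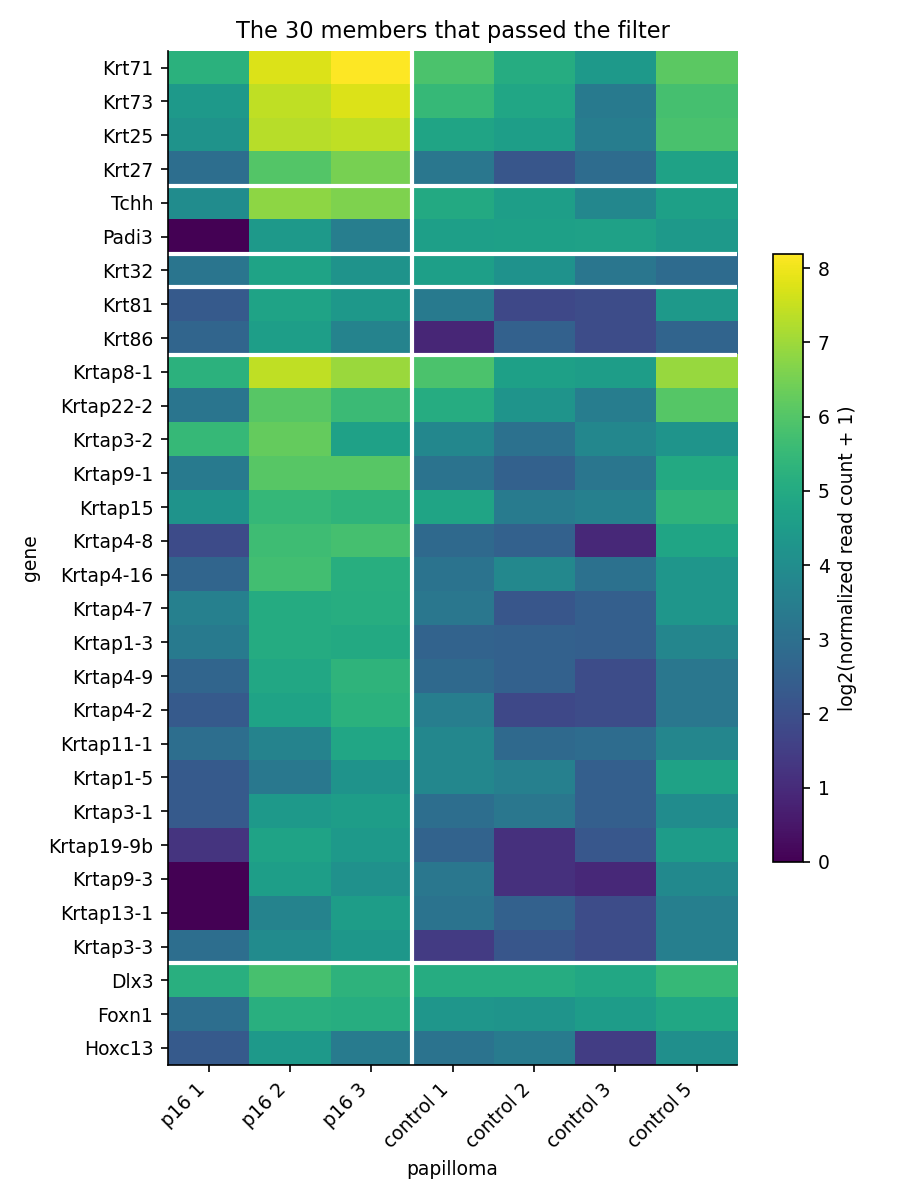
log2(normalized read count + 1) of the 30 hair genes that passed the filter (rows, grouped by role: inner root sheath keratins, trichohyalin and Padi3, type I and type II shaft keratins, keratin-associated proteins, transcription factors) in each papilloma (columns). p16 papillomas 2 and 3 are bright across most rows, p16 papilloma 1 is not, and Krtap3-2 is a row in which p16 papilloma 1 is also above every control.

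The inner root sheath keratins were highest in p16 papillomas 2 and 3. Krt71, the main type II keratin of the sheath (chr15:101733949-101743109 on GRCm38), had 36.3, 214 and 293 normalized reads in p16 papillomas 1, 2 and 3, against 57.2, 32.6, 20.1 and 68.5 in control papillomas 1, 2, 3 and 5. p16 papillomas 2 and 3 were above every control and p16 papilloma 1 was within the control range. The log2 change of Krt71 was 1.69 ± 0.62 (SE, limma, adjusted p = 0.139). These values rested on 27, 74 and 398 reads in p16 papillomas and 22 to 67 reads in control papillomas.

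Krt73, a type II keratin of the sheath cuticle, had 20.2, 171 and 218 in p16 papillomas, against 43.6, 27.8, 9.13 and 53.7 in control papillomas. Krt25, a type I keratin that pairs with K71, had 17.5, 159 and 168 in p16 papillomas, against 26.5, 23.0, 10.0 and 55.8 in control papillomas. Krt27, a type I keratin of all sheath layers, had 6.73, 63.7 and 89.7 in p16 papillomas, against 8.54, 3.62, 6.39 and 25.3 in control papillomas. In each of the 3 genes, p16 papillomas 2 and 3 exceeded all controls while p16 papilloma 1 did not, and control papilloma 5 was the highest control. Their log2 changes were 1.67 ± 0.75 for Krt73, 1.65 ± 0.72 for Krt25 and 1.89 ± 0.80 for Krt27 (SE, limma, adjusted p = 0.227, 0.216 and 0.201). Krt28, the remaining type I keratin, had too low a mean for the test, at 0, 8.68 and 16.9 in p16 papillomas, against 4.27, 2.42, 1.83 and 4.21 in control papillomas.

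Summed over the 5 inner root sheath keratins, p16 papillomas had 80.7, 617 and 784 (494 ± 367, SD, n = 3), against 140, 89.4, 47.5 and 208 in control papillomas (121 ± 69.0, SD, n = 4). The difference in log2 means was 1.68, with a pooled SD of 1.33 between papillomas of a group. Without p16 papilloma 3, it was 1.08. Without p16 papilloma 1, it was 2.71, and Krt71, Krt25, Krt27 and Krt73 were then called higher (limma, adjusted p = 0.0092, 0.0177, 0.0240 and 0.0240). Krt71 took 34.7% to 45% of the sheath keratin reads in p16 papillomas, against 33.0% to 42.3% in control papillomas, so the proportions among the sheath keratins overlapped between the groups.

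The marker list holds 2 further sheath keratins that the choice of genes did not include, Krt26 and Krt72. Krt72 had 6.73, 40.5 and 25.7 in p16 papillomas, against 8.54, 4.83, 4.57 and 8.43 in control papillomas (log2 change 1.48 ± 0.59, SE, limma, adjusted p = 0.170). Krt26 had 5.38, 5.79 and 19.8 in p16 papillomas, against 4.27, 2.42, 1.83 and 2.11 in control papillomas (log2 change 1.45 ± 0.72, SE, adjusted p = 0.278). For Krt72, p16 papillomas 2 and 3 again lay above the controls and p16 papilloma 1 among them, whereas all 3 p16 values of Krt26 lay above the controls. Of the 7 sheath keratins listed as markers, 6 were tested and 0 were called by limma (0 also with edgeR and with DESeq2), although 5 had an unadjusted p under 0.05.

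Trichohyalin and its modifying enzyme had changes of opposite sign, neither of them called. Tchh, the trichohyalin gene, had 14.8, 110 and 96.3 in p16 papillomas, against 30.7, 23.0, 12.8 and 24.2 in control papillomas. It followed the sheath keratins, with p16 papillomas 2 and 3 above all controls and p16 papilloma 1 low (log2 change 1.29 ± 0.58, SE, limma, adjusted p = 0.230). DESeq2 on the recovered reads called Tchh higher (adjusted p = 0.0179), and so did limma without p16 papilloma 1 (adjusted p = 0.00838).

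Padi3, the deiminase, had 0, 20.3 and 10.3 in p16 papillomas, against 23.9, 24.2, 24.7 and 20.02 in control papillomas. The controls were tightly grouped, and only p16 papilloma 2 reached their lowest value. The log2 change was -1.96 ± 0.82 (SE, limma, adjusted p = 0.197). Without p16 papilloma 1, in which no read was found (a count of 0 allows up to 3 reads, or 4.04 normalized), the change was -0.64. Padi3 had the most negative change of the 30 tested hair genes.

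Among shaft keratins, 3 of 10 passed the filter, Krt86 and Krt81 through the p16 mean alone. Krt86, a type II cortex keratin, had 5.38, 23.2 and 11.8 in p16 papillomas, against 0.854, 4.83, 2.74 and 5.27 in control papillomas. Its groups did not overlap, although p16 papilloma 1 (4 reads) exceeded the highest control (5 reads in a deeper library) by a small margin, and the log2 change was 1.65 ± 0.71 (SE, limma, adjusted p = 0.210). Krt86 and Krtap3-2 were the 2 tested hair genes whose groups did not overlap, both with p16 papillomas above every control. Krt86 entered this count only because its p16 mean reached the filter, whereas Krtap3-2 passed in both groups. Of all genes, 19.6% did not overlap (9.25% with p16 higher, 10.4% with p16 lower).

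Krt81, the other type II keratin tested, had 4.04, 26.1 and 19.8 in p16 papillomas, against 9.39, 2.42, 2.74 and 20.02 in control papillomas, and the groups overlapped (log2 change 0.96 ± 0.77, SE, limma, adjusted p = 0.522). Krt32, a type I keratin of the shaft cuticle, had 8.07, 26.1 and 17.6 in p16 papillomas, against 23.9, 16.9, 8.22 and 6.32 in control papillomas. Krt32 departed from the pattern of most tested hair genes, because control papilloma 1 was near the top and control papilloma 5 was the lowest (log2 change 0.33 ± 0.53, SE, adjusted p = 0.769). Control papilloma 5 was also the lowest control for Padi3.

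The remaining shaft keratins were near the limit of detection. Krt34 had 4.04, 11.6 and 10.3 in p16 papillomas, against 2.56, 4.83, 0.913 and 4.21 in control papillomas. Krt35 had 9.42, 2.89 and 11.03 in p16 papillomas, against 4.27, 4.83, 2.74 and 3.16 in control papillomas. Krt31, Krt33a and Krt33b, cortex keratins of type I, ranged from 0 to 5.88 in p16 papillomas and from 0.913 to 8.54 in control papillomas, with overlapping groups. Krt36 and Krt83 were read only in p16 papilloma 3 and control papilloma 5, at 2.11 or less. The identifier listed as Krt83 is named Krt87 in GENCODE M21, and 53.0% of the 50-base words at the end of its transcript also occur in Gm49425, so its identity and count are uncertain.

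The type I shaft keratins summed to 24.2, 49.2 and 54.4 in p16 papillomas, against 45.3, 32.6, 17.3 and 34.8 in control papillomas. The type II shaft keratins summed to 9.42, 49.2 and 33.1 in p16 papillomas, against 10.2, 7.25, 5.48 and 27.4 in control papillomas. The groups overlapped in both, and the difference in log2 means was 0.38 for type I and 1.19 for type II, with pooled SDs of 0.59 and 1.04. On leaving out 1 papilloma, the difference ranged from 0.11 to 0.73 for type I and from 0.72 to 1.86 for type II.

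**Figure D3:**
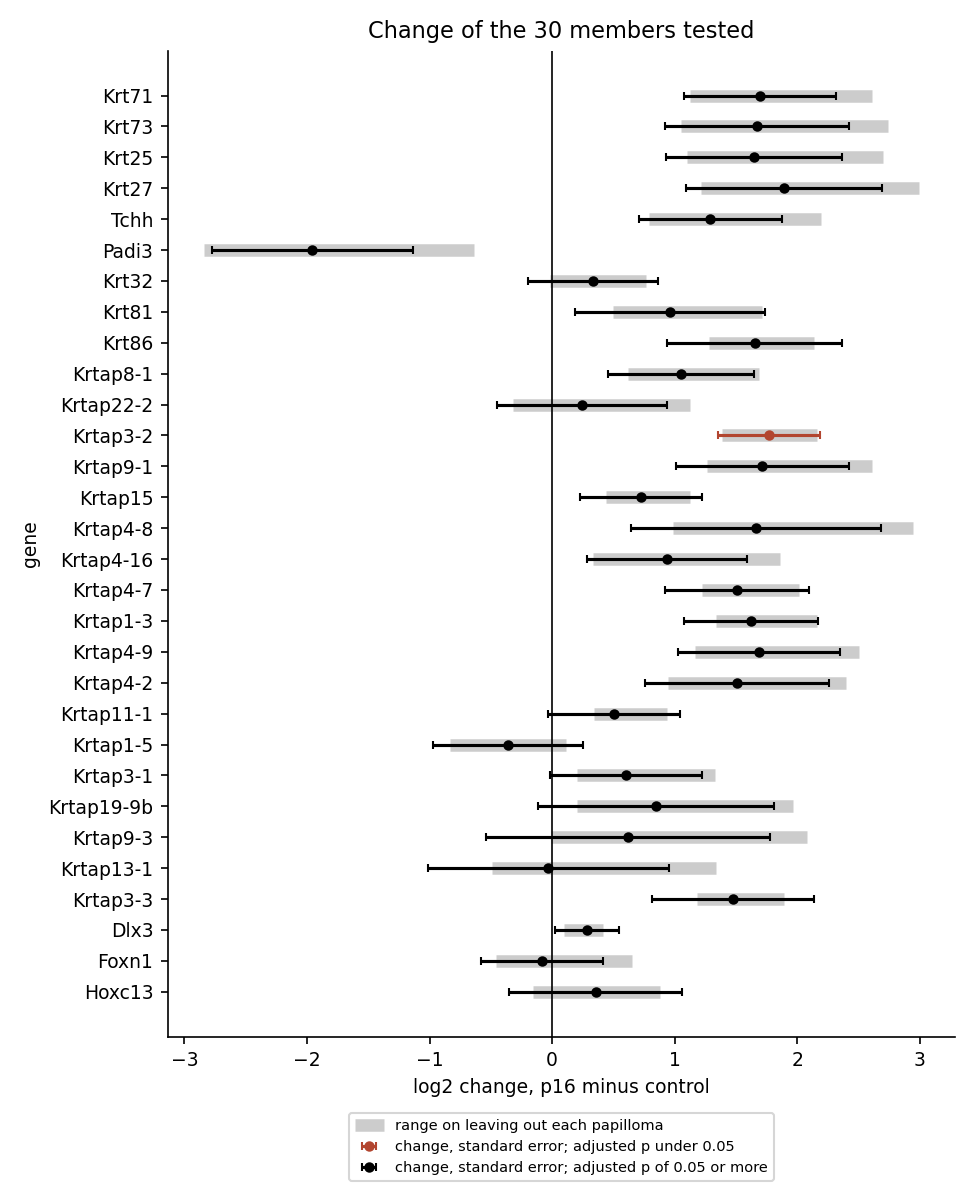
log2 change, p16 minus control (x axis), of the 30 hair genes tested, with the standard error from limma; the grey bars span the changes on leaving out each papilloma in turn. Krtap3-2 (red) was the gene with adjusted p under 0.05, and the grey bars of most genes reach far to the right, which is the fit without p16 papilloma 1.

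Keratin-associated protein genes were the largest group, 19 on chromosome 11, 23 on chromosome 16, 4 on chromosome 7, 2 on chromosome 10 and 1 on chromosome 1. Their summed values were 203, 863 and 849 in p16 papillomas (638 ± 377, SD, n = 3), against 301, 170, 135 and 613 in control papillomas (305 ± 218, SD, n = 4). p16 papillomas 2 and 3 were highest, control papilloma 5 came next, and p16 papilloma 1 fell among the other controls. The difference in log2 means was 1.05, with a pooled SD of 1.07, and it was 1.74 without p16 papilloma 1 and 0.70 without p16 papilloma 2. Of these genes 18 were tested, and 2 of the 49 carried the authors' mark for genes expressed in sorted keratinocytes, against 12235 of all 14820 genes.

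Krtap3-2, a high sulfur gene of the chromosome 11 cluster (chr11:99555823-99556853), had 44.4, 75.3 and 25.0 in p16 papillomas, against 12.8, 7.25, 12.8 and 17.9 in control papillomas. All 3 p16 papillomas were above all 4 controls, and p16 papilloma 1 was above p16 papilloma 3, unlike in the other tested hair genes. The log2 change was 1.77 ± 0.41 (SE, limma, adjusted p = 0.0307), from 33, 26 and 34 reads in p16 papillomas and 6 to 17 reads in control papillomas. The adjusted p was 0.0035 to 0.129 over 16 alternatives, and 10 of these called the gene. It was lost on leaving out p16 papilloma 1 (adjusted p = 0.0876), p16 papilloma 2 (0.129), control papilloma 1 (0.0510) or control papilloma 2 (0.0721).

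The neighbors Krtap3-1 and Krtap3-3 are printed above beside it. Krtap3-1 had 4.04, 20.3 and 22.8 in p16 papillomas, against 6.83, 8.46, 4.57 and 14.8 in control papillomas (log2 change 0.61 ± 0.62, SE, limma, adjusted p = 0.620). Krtap3-3 had 6.73, 14.5 and 19.1 in p16 papillomas, against 1.71, 3.62, 2.74 and 10.5 in control papillomas (1.47 ± 0.66, SE, adjusted p = 0.228). p16 papilloma 1 lay below every control for Krtap3-1 and within the control range for Krtap3-3. Krtap3-2 took 80.5% of the Krtap3 reads in p16 papilloma 1 (95% Wilson interval 66.0% to 89.8%), 68.4% in p16 papilloma 2 and 37.4% in p16 papilloma 3 (28.1% to 47.6%), against 37.5% to 63.6% in control papillomas. The intervals cover counting error only, and none of the 3 genes shared 50-base words with another gene.

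In the high sulfur class, 8 of 14 genes were tested. Of these 8 genes, 5 passed the filter through the p16 mean alone (Krtap1-3, Krtap3-1, Krtap3-3, Krtap11-1 and Krtap13-1), so their direction was partly set by the filter. Krtap1-3 had 9.42, 31.8 and 30.9 in p16 papillomas, against 5.12, 4.83, 4.57 and 12.6 in control papillomas, and only control papilloma 5 exceeded p16 papilloma 1 (log2 change 1.62 ± 0.55, SE, limma, adjusted p = 0.113). Krtap1-5, of the same family, had 4.04, 8.68 and 17.6 in p16 papillomas, against 12.8, 10.9, 4.57 and 25.3 in control papillomas. Its highest value was in control papilloma 5 and its log2 change was -0.36 ± 0.61 (adjusted p = 0.787). Krtap11-1, Krtap13-1 and Krtap15 had log2 changes of 0.50, -0.03 and 0.73 (adjusted p = 0.437 to 0.991). Krtap15 overlaps 4930553J12Rik, which shares 21.5% of its terminal 50-base words, so its count is uncertain.

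The ultrahigh sulfur class, whose cysteine-rich proteins are found in the cuticle and cortex, had 7 of 14 genes tested, with log2 changes from 0.62 to 1.71 (limma, adjusted p = 0.165 to 0.808), though that of Krtap9-3 was -0.01 without p16 papilloma 3. Of these 7 genes, 5 passed the filter through the p16 mean alone, which largely fixed their positive sign. Krtap9-1 had 9.42, 66.6 and 66.2 in p16 papillomas, against 7.69, 4.83, 8.22 and 30.6 in control papillomas. Krtap4-9 had 5.38, 28.9 and 39.7 in p16 papillomas, against 5.98, 4.83, 2.74 and 8.43 in control papillomas. In both genes p16 papillomas 2 and 3 were above every control and p16 papilloma 1 was not. DESeq2 called these 2 genes higher beside Tchh and Krtap3-2 (adjusted p = 0.0469 for Krtap9-1 and 0.0275 for Krtap4-9).

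Krtap4-7 had 10.8, 31.8 and 33.8 in p16 papillomas, against 8.54, 3.62, 4.57 and 18.97 in control papillomas. Krtap4-8 had 2.69, 49.2 and 54.4 in p16 papillomas, against 5.98, 4.83, 0.913 and 27.4 in control papillomas. In both, p16 papillomas 2 and 3 and then control papilloma 5 were highest. Krtap4-2, Krtap4-16 and Krtap9-3 had log2 changes of 1.51, 0.94 and 0.62, with p16 papilloma 1 at 4.04, 5.38 and 0. The class summed to 45.7, 310 and 326 in p16 papillomas, against 62.3, 43.5, 31.04 and 158 in control papillomas, and these sums overlapped. The end of the Krtap4-8 transcript shares 5.41% of its 50-base words with Gm11596, Krtap4-6 and Krtap4-9, so a few of its reads may belong to those copies.

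The high glycine-tyrosine class, proteins of the shaft cortex, had 3 of 16 genes tested, of which 1 (Krtap19-9b) passed through the p16 mean alone. Krtap8-1 (chr16:89487379-89487952) had 37.7, 171 and 125 in p16 papillomas, against 57.2, 24.2, 22.8 and 122 in control papillomas. Control papilloma 5 was close to p16 papilloma 3, and the log2 change was 1.05 ± 0.59 (SE, limma, adjusted p = 0.338). Krtap22-2 had 8.07, 66.6 and 47.0 in p16 papillomas, against 32.5, 18.1, 10.0 and 64.3 in control papillomas (0.24 ± 0.70, SE, adjusted p = 0.880). Krtap19-9b had 1.35, 26.1 and 20.6 in p16 papillomas, against 5.12, 1.21, 3.65 and 22.1 in control papillomas (0.85 ± 0.96, SE, adjusted p = 0.662). In both, control papilloma 5 lay between p16 papillomas 2 and 3.

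The other 31 keratin-associated protein genes did not pass the filter and reached at most 17.4 in any papilloma. They were 6 of the Krtap19 family, 4 each of Krtap5 and Krtap6, 2 each of Krtap4, Krtap16 and Krtap31, and 1 of each of 11 further families. Their p16 mean exceeded the control mean in 24 of 31, and 6 of the 31 stayed under 3 reads in every papilloma, where no difference can be read. Shared sequence also limited some of them, above all Krtap5-2 (39.0% of terminal 50-base words), Krtap10-4 (27.6%), Krtap31-2 (13.96%) and Krtap21-1 (11.1%).

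Composition within the hair genes also differed between lesions. Inner root sheath keratins took 28.4%, 41.7% and 48.0% of the reads of sheath keratins and keratin-associated proteins in p16 papillomas 1, 2 and 3, against 31.7%, 34.4%, 26% and 25.3% in control papillomas 1, 2, 3 and 5. In p16 papilloma 3 the 95% Wilson interval (45.9% to 50.1%) lay above those of all controls, whereas the interval of p16 papilloma 1 (22.8% to 34.9%) overlapped every control. Control papilloma 5 therefore approached the high p16 papillomas in keratin-associated proteins more than in sheath keratins.

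Chromosome 11 genes, which include the Krtap1, Krtap3, Krtap4 and Krtap9 families, took 57.4%, 54.9% and 55.5% of the chromosome 11 and 16 keratin-associated protein reads in p16 papillomas, against 35.6%, 49.3%, 45.5% and 41.6% in control papillomas. These shares did not overlap between groups. Without Krtap3-2, an alternative chosen after the values were seen, they were 45.2%, 50.4% and 54.1% in p16 papillomas, against 32.6%, 46.9%, 39.7% and 39.8% in control papillomas, and the groups overlapped. The chromosome 11 sums were 114, 454 and 453 in p16 papillomas, against 104, 80.9, 60.3 and 247 in control papillomas. The chromosome 16 sums were 84.7, 373 and 363 in p16 papillomas, against 189, 83.3, 72.1 and 346 in control papillomas.

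**Figure D4:**
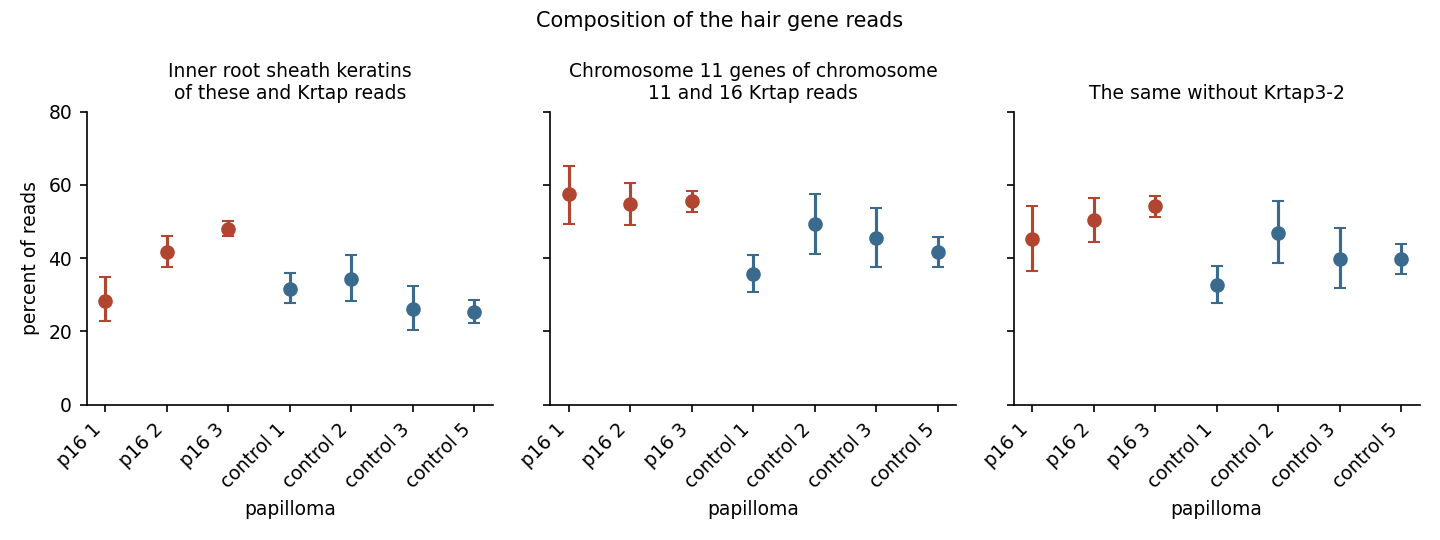
Percent of reads (y axis) in each papilloma, with 95% Wilson intervals for counting error: inner root sheath keratins among sheath keratin and Krtap reads (left), chromosome 11 genes among chromosome 11 and 16 Krtap reads (middle), and the same share without Krtap3-2 (right). p16 papillomas 2 and 3 are highest on the left (41.7% and 48.0%), and the separation of the groups in the middle is lost on the right.

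The 3 transcription factor genes had log2 changes from -0.08 to 0.35, and none was called. Dlx3, required for hair matrix differentiation and also active in the differentiated epidermis, had 35.0, 55.0 and 38.2 in p16 papillomas, against 32.5, 32.6, 29.2 and 44.3 in control papillomas (log2 change 0.29 ± 0.26, SE, limma, adjusted p = 0.571). Foxn1, the gene mutated in nude mice, had 6.73, 34.7 and 33.8 in p16 papillomas, against 18.8, 18.1, 21.9 and 28.4 in control papillomas. It was lowest in p16 papilloma 1 and highest in p16 papillomas 2 and 3 (-0.08 ± 0.50, SE, adjusted p = 0.949). Hoxc13, a direct regulator of hair keratin genes, had 4.04, 20.3 and 9.56 in p16 papillomas, against 7.69, 9.66, 1.83 and 15.8 in control papillomas (0.35 ± 0.70, SE, adjusted p = 0.818). The sign of the change of Foxn1 and of Hoxc13 turned when single papillomas were left out.

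Across the 30 tested hair genes, p16 papilloma 1 was below both other p16 papillomas in 29, within the control range in 20, below every control in 8 and above every control in 2. p16 papillomas 2 and 3 were both above every control in 20, but 14 of the 30 had passed the filter through the p16 mean alone. With the filter blind to the groups it was 16 of 25 (64%), beside 13.4% of all 10083 genes that passed that filter. This pattern leaves out p16 papilloma 1 and was named after the hair gene values were seen. The choice itself raised the share of hair genes, so the 2 shares are a description and not a test. Control papilloma 5 was the highest control in 25 of the 30. These genes are not independent of one another.

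Genes of the hair matrix, cortex and inner root sheath that lie outside the named hair genes were taken from a marker list. Of 21 tested, 1 was called higher and 2 were called lower, with a median log2 change of 0.08. Gata3, a transcription factor needed for the inner root sheath and also expressed in the epidermis, had 424, 350 and 384 in p16 papillomas, against 88.8, 140, 124 and 135 in control papillomas (1.67 ± 0.19, SE, limma, adjusted p = 0.000541). All 3 p16 papillomas were above all controls, p16 papilloma 1 included. Padi4, another deiminase, had 1.35, 2.89 and 2.21 in p16 papillomas, against 24.8, 13.3, 10.0 and 24.2 in control papillomas (-2.54 ± 0.55, SE, adjusted p = 0.0204). Tgm3, the transglutaminase that crosslinks trichohyalin and cornified envelope proteins, had 6074, 6565 and 5948 in p16 papillomas, against 21883, 15152, 8290 and 16063 in control papillomas (-1.23 ± 0.27, SE, adjusted p = 0.0226). On leaving out each papilloma in turn, Padi4 was called in 4 of 7 fits (adjusted p up to 0.0940) and Tgm3 in 2 of 7 (up to 0.0748). Hr, the hairless corepressor, was at 0.56 ± 0.16 (adjusted p = 0.0666).

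Among 12 tested markers of the outer root sheath, companion layer and bulge, Nfatc1 was called higher and Krt17 and Cd34 were called lower. Krt17 had 3060, 2759 and 3275 in p16 papillomas, against 5232, 6756, 6066 and 9974 in control papillomas (-1.17 ± 0.21, SE, limma, adjusted p = 0.00719), and Krt17 is also induced in wounded and hyperplastic epidermis. Cd34, a bulge stem cell surface marker in mouse that endothelial cells also express, had 17.5, 14.5 and 16.9 in p16 papillomas, against 45.3, 42.3, 34.7 and 49.5 in control papillomas. Nfatc1, a bulge transcription factor, had 74.0, 86.8 and 80.1 in p16 papillomas, against 28.2, 32.6, 49.3 and 36.9 in control papillomas (1.13 ± 0.23, SE, adjusted p = 0.0169), and its call was lost without p16 papilloma 2 (adjusted p = 0.0702). In these 3 genes p16 papilloma 1 lay with the other p16 papillomas, apart from every control. The marker list names 16 genes as shaft keratins, of which 13 had a row. Of these, Krt84 was tested in addition to those above. It had 84.7, 153 and 82.3 in p16 papillomas, against 90.5, 87.0, 78.5 and 182 in control papillomas (-0.01 ± 0.31, SE, limma, adjusted p = 0.991).

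Markers of skeletal muscle, which lies beneath the skin, were higher in p16 papillomas 2 and 3 than in every control for 11 of 12 genes. Over all genes tested, 13.7% had this pattern. The summed values of the 12 muscle markers were 291, 11804 and 2698 in p16 papillomas, against 556, 685, 225 and 221 in control papillomas, and all 12 had a positive change without any called by limma (log2 median 2.44). The exception, Myh4, a fast myosin heavy chain named here after its values were seen, had 13.5, 1627 and 22.1 in p16 papillomas, against 70.03, 61.6, 20.1 and 14.8 in control papillomas, and its log2 change of 1.23 was -0.93 without p16 papilloma 2. Ckm, muscle creatine kinase, had 30.9, 923 and 203 in p16 papillomas, against 35.9, 33.8, 16.4 and 23.2 in control papillomas (log2 change 2.75 ± 0.82, SE, adjusted p = 0.0759). p16 papilloma 2 was the richest in muscle and p16 papilloma 3 in sheath keratins. Among controls, the muscle sums were lowest in papilloma 5, highest in hair genes, and papilloma 3, lowest in hair genes (221 and 225). At unadjusted p under 0.05 (limma), 9 of the 12 were higher, beside 9.66% of all genes tested. edgeR called 8 of the 12 higher and DESeq2 9, beside 2.72% and 3.78% of all genes. None of the 12 markers was at 0 in all papillomas. The part of this difference in tissue content in the hair gene values was not tested.

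Of 5 adipocyte markers tested, 4 (Car3, Cfd, Adipoq and Lpl) were called higher, with all 3 p16 papillomas above every control, while Fabp4 was at -1.54 ± 0.46 (SE, limma, adjusted p = 0.0764). Cfd, the adipocyte factor adipsin, had 65.9, 52.1 and 104 in p16 papillomas, against 5.98, 8.46, 0.913 and 8.43 in control papillomas (3.61 ± 0.55, SE, limma, adjusted p = 0.00319). p16 papilloma 1, with low hair gene values, was thus above every control for these 4 genes. On leaving out each papilloma in turn, Adipoq and Lpl were each called in 3 of 7 fits (adjusted p up to 0.106 for each). Of 5 basal keratinocyte markers 1 was called lower, and of 4 suprabasal markers 3 were called higher. Their part in the hair gene values was not tested.

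**Figure D5:**
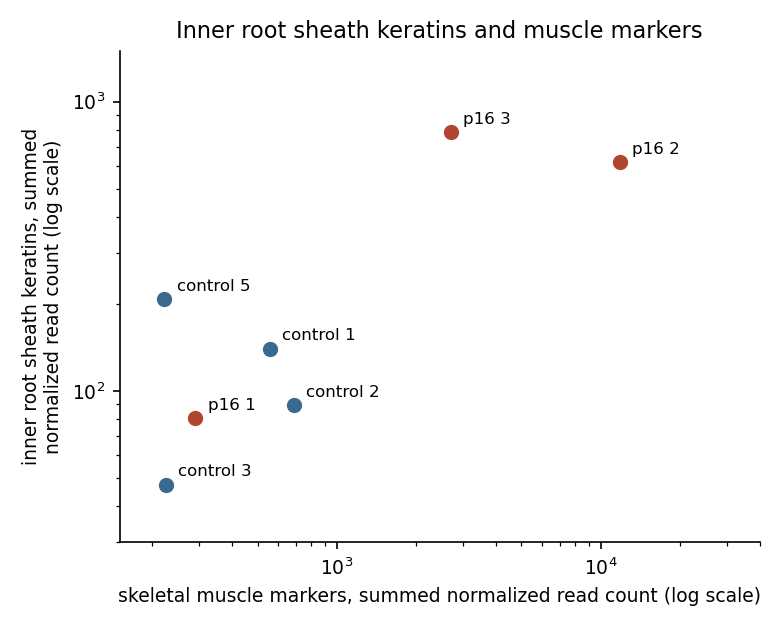
Summed inner root sheath keratins (y axis, log scale) against summed skeletal muscle markers (x axis, log scale), both as normalized read counts, 1 point for each papilloma (red p16, blue control). p16 papillomas 2 and 3 stand apart on both axes, while p16 papilloma 1 lies among the 4 controls.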

How the data were processed

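Whole papillomas were profiled by CEL-Seq2, which sequences transcript 3′ ends. As the submitters' processing notes and the published methods describe, the authors trimmed reads with Cutadapt, aligned them to GRCm38 with TopHat2, counted them per gene with HTSeq and normalized them with DESeq2. Versions, annotation release, strand setting and handling of multi-mapping reads are not given in the sources used here. The deposited signal values are read counts divided by 1 size factor per papilloma. Every value was a whole multiple of 1 read (100% at a tolerance of 0.001), so reads were recovered. The deposited table also holds the authors' log2 fold changes, standard errors, Wald statistics and p-values, which were not used, and a mark for genes expressed in sorted keratinocytes.

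limma 3.58.1 (trend, R 4.3.3) was fitted to log2(value + 1) of the 10466 genes whose p16 or control mean reached 10, with 3 p16 against 4 control papillomas, without covariates, two-sided, with Benjamini-Hochberg adjustment over all genes. It was tested on simulated data. Alternatives were other pseudocounts (0.5 and 4), filters and scalings, edgeR 4.0.16 and DESeq2 1.42.0 on recovered reads, a replicate block and leaving out each papilloma. The genes and gene lists were chosen with earlier results of these data known. All listed genes and the tested Krtap genes are named, as are list members of small p, at most 4 from each of the hair and muscle lists. All 5 tested adipocyte markers are named. Shared sequence is the percent of 50-base words in the last 400 bases of a gene's GENCODE M21 transcripts that another gene also holds.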

Additional observations from a re-analysis of the deposited data

Results flagged for a closer look

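In the control group, 1 papilloma stood apart from the other 3, with a gap to the nearest value that took more of the whole range than the 95% critical value of Dixon's test for 4 samples, for 6 of the 53 genes and sums examined. Chance flags about 1 in 20 groups, and these genes are not independent. In all 6 it was control papilloma 5.

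Control papilloma 5 was high for Krtap9-1 (30.6, against 4.83 to 8.22 in the other controls, gap over range 0.868), Krtap1-3 (12.6, against 4.57 to 5.12, ratio 0.931) and Krt33a (8.43, against 1.83 to 2.56, ratio 0.889). It was the only control with a read of Krt36 or Krt83 (2.11 each, ratio 1), which is 2 reads. With every other control at 0 the ratio is 1 whatever the count, so these flags carry no information on size. Control papilloma 5 was low for Padi3 (20.02, against 23.9 to 24.7, ratio 0.841), on 19 reads against 20 to 28 in the other controls.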

How the results depend on the processing

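In all 16 alternatives 0 hair genes were called lower, and Krtap3-2 kept its direction. Hair genes called higher numbered 0 with no filter, 0 with the replicate block, 4 with DESeq2 and 0 to 8 on leaving out 1 papilloma. The summed differences of the main hair groups stayed positive under library total and TMM scaling and on leaving out each papilloma, and moved by less than the spread between papillomas. Of the untested Krtap genes, 6 stayed under 3 reads in every papilloma, too few to read a difference. The cause of the shifts below was not tested.

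Over all genes, 126 were called higher and 122 lower with no filter, and 135 and 135 with the replicate block. Leaving out 1 papilloma gave 114 to 267 higher and 153 to 281 lower. On leaving out 1 papilloma, the lists gave 0 to 5 inner root sheath keratins higher, 0 to 3 matrix genes lower, 0 to 2 outer root sheath genes higher and 2 to 3 lower, 0 to 1 sebaceous genes higher, 0 to 10 muscle genes higher, 2 to 4 adipocyte genes higher and 0 to 1 lower, 0 to 3 basal genes lower, 2 to 4 suprabasal genes higher and 0 to 1 fibroblast genes higher. With no filter, the lists gave 1 matrix gene lower, 0 outer root sheath genes higher and 1 lower, 1 suprabasal gene higher and 0 fibroblast genes higher. With the replicate block, they gave 0 matrix genes lower, 1 outer root sheath gene lower, 0 basal genes lower and 0 fibroblast genes higher. DESeq2 gave 2 outer root sheath genes higher, 9 muscle genes higher and 3 basal genes lower, edgeR gave 8 muscle genes higher, and library total scaling gave 2 basal genes lower.

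Of the 48 genes followed over the alternatives, 8, none of them called, changed sign in some. List genes outside these 48, such as Myh4, were followed only on leaving out 1 papilloma, and several changed sign too. Foxn1 was at 0.18 with edgeR, 0.18 with DESeq2, 0.0496 with the replicate block and -0.45 to 0.65 on leaving out 1 papilloma. Krtap13-1 was at 0.24 with a pseudocount of 4, 0.93 with edgeR, 0.88 with DESeq2, 0.22 with the replicate block and -0.49 to 1.34 on leaving out 1 papilloma. Krt84 was at 0.00177 with library total scaling, 0.26 with the replicate block and -0.30 to 0.26 on leaving out 1 papilloma. Leaving out 1 papilloma gave -0.15 to 0.88 for Hoxc13, -0.0187 to 0.77 for Krt32, -0.83 to 0.11 for Krtap1-5, -0.00537 to 2.08 for Krtap9-3 and -0.32 to 1.13 for Krtap22-2.

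The replicate numbers 1, 2 and 3 occur in both groups, but same-numbered papillomas did not deviate together from their group means (correlations of -0.09, -0.01 and -0.05 over genes), so they were not treated as pairs. With the number as a block, Krtap3-2 had an adjusted p of 0.0886 (limma). Control papilloma 5 has no partner in that fit.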

Other observations

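Follicle-associated cell types other than keratinocytes gave no called genes. Of 14 dermal papilla markers 4 passed the filter and were tested, of 11 melanocyte markers 1 and of 12 sebaceous gland markers with a row 10. limma called 0 in each list (0 also with edgeR and with DESeq2), with 1 sebaceous gene and none of the others at an unadjusted p under 0.05. Of 6 fibroblast markers 1 (Dcn) was called higher and of 3 immune markers 0. Summed sebaceous markers were 1267, 1363 and 1508 in p16 papillomas, against 1074, 1084, 1095 and 1457 in control papillomas, and p16 papilloma 1 lay above 3 of the 4 controls.

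The 5 genes outside the hair gene list whose log2 values followed the summed shaft keratins and keratin-associated proteins most closely over the 7 papillomas, out of 10436 compared, were Gm10229 (Pearson r = 0.978), Trap1 (0.968), Apmap (0.961), Fam173a (0.960) and Rarres1 (0.951). These are descriptions over 7 points, picked from many genes, and none of the 5 was called (limma, adjusted p = 0.313 to 0.615). Gm10229 had 4.04, 28.9 and 25.0 in p16 papillomas, against 10.2, 4.83, 2.74 and 28.4 in control papillomas. Its annotated start lies 4889 bases from that of Krtap22-2 on chromosome 16, within the keratin-associated protein cluster.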
